A study of Mus musculus with 9 samples.

Results

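Nodal, Lefty1, Lefty2, Tdgf1, Gdf3, Foxh1, Fst, Acvr2b, Skil and Smad7 are ligands, receptors, a nuclear partner and inhibitors of the Nodal and Activin pathway. They were taken by symbol from the table of raw counts, in which all 10 are present among 23453 symbols, and their levels were followed over 9 bulk RNA-seq libraries of cultured mouse cells. EpiLCs (epiblast-like cells, 3 libraries) had been grown for 48 h from naive embryonic stem cells in N2B27 medium that held 1% KSR (a replacement for serum), FGF2 and Activin A. aEpiLCs (3 libraries) were EpiLCs kept for a further 24 h without Activin A or FGF2, in medium that the labels call basal. The study's methods list 1% KSR for the medium of this state as well, so whether KSR was also withdrawn is not settled. pEpiLCs (3 libraries) were EpiLCs kept for a further 24 h with Activin A and CHIR99021, an inhibitor of GSK3 that activates Wnt/β-catenin signalling. No FGF2 is listed for pEpiLCs. Activin A and CHIR99021 differ together between aEpiLC and pEpiLC, and both states differ from EpiLC in medium and in 24 h of culture at once, so the parts of each cannot be told apart. The cells are described as wild-type with no line named, and all 9 libraries come from a protocol that starts in culture although their tissue label is embryo. Nothing states that the libraries of a state came from separate cultures, so the p-values measure the spread between these libraries, which may be technical.

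Nodal and Activin are secreted ligands of the TGF-β family that bind type I and type II activin receptors. Nodal, unlike Activin, also needs an EGF-CFC co-receptor such as the product of Tdgf1 (Cripto). The receptors phosphorylate SMAD2 and SMAD3, which enter the nucleus with SMAD4 and act on target genes together with partners such as FOXH1. Several target genes encode parts of the pathway: Nodal itself feeds forward, whereas the Lefty proteins and SMAD7 feed back. In the mouse epiblast the pathway maintains the primed pluripotent state and, at the posterior side, acts with Wnt signalling in the formation of the primitive streak.

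Total counts lay between 20560564 and 23417917 per library, at which 3 counts, taken as the floor of detection, equalled 0.130 to 0.143 CPM (the count scaled to the library total and corrected for composition). All 10 genes were above that floor in every library. Markers of the epiblast state (7 of 7 in the table) summed to 5173 to 5489 CPM in EpiLC, 5176 to 5354 CPM in aEpiLC and 2454 to 3987 CPM in pEpiLC, with none at 0, where a marker is given as at 0 if it had no count in any library of a state. The largest of them in EpiLC was Dnmt3b, with means of 2697 CPM in EpiLC and 1244 CPM in pEpiLC. Pou5f1 was at 1128 and 954 CPM, and Fgf5, the only 1 of the 7 higher in pEpiLC, at 85.3 and 168 CPM. pEpiLC replicate 1 stood apart: it differed more than 4-fold from replicates 2 and 3 in 324 and 333 of 15797 genes, against 57 to 76 genes for any other pair of libraries of the same state. Primitive streak and mesoderm markers (9 of 9) summed to 2608 CPM in that library, against 671 and 668 CPM in pEpiLC replicates 2 and 3 and 10.5 to 15.4 CPM in the EpiLC and aEpiLC libraries, where Evx1 was at 0. Values without this library are given for the 10 genes in both pEpiLC comparisons.

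After 24 h without Activin A and FGF2, 5 of the 10 genes were lower. Lefty2, Tdgf1, Lefty1, Smad7 and Nodal fell in aEpiLC by 3.27-fold (Nodal) to 17.1-fold (Lefty2) relative to EpiLC, and none of the 10 rose past the limits. A gene was called at an adjusted p below 0.05 in edgeR's quasi-likelihood test and a log2 fold change of at least 1 in size. At these limits 5.24% of the 15301 genes tested were called lower and 7.25% higher. The median log2 fold change of the 10 genes was -1.21, against 0.0023 over all genes tested. With the adjusted p alone, 8 of the 10 were lower (22.6% of all genes tested) and 1, Fst, was higher (24% of all genes tested). The aEpiLC and EpiLC libraries did not overlap for 9 of the 10 genes, all but Acvr2b, against 56.3% of all genes tested. In a bulk sample, fewer cells expressing a gene and less RNA per cell cannot be told apart. The summed level of neural markers (6 of 6, none at 0) was 485 to 551 CPM in aEpiLC and 183 to 229 CPM in EpiLC. Nes made up most of the aEpiLC sum, at 292 to 335 CPM against 81.5 to 110 CPM in EpiLC. Of these 6, 3 were called higher (Nes, Map2 and Pax6). Sox1 (log2 fold change -0.32, adjusted p = 0.504) and Sox3 (0.13, adjusted p = 0.414) were not. Naive stem cell markers (7 of 7, none at 0, Prdm14 under the floor in both states) summed to 17.2 to 17.7 CPM in aEpiLC and 35.2 to 37.9 CPM in EpiLC, and 3 of the 5 tested were called lower. Extraembryonic endoderm markers (6 of 8 in the table, none at 0, Sox7 under the floor in aEpiLC) summed to 26.3 to 37.0 CPM and 14.7 to 16.6 CPM, and 1 of the 2 tested, Lama1, was called higher. The sum of extraembryonic ectoderm and trophoblast markers (6 of 6, Elf5 at 0 in EpiLC and under the floor in aEpiLC, Hand1 under the floor in EpiLC) was 93.1 to 108 CPM in aEpiLC and 23.9 to 30.4 CPM in EpiLC. Most of it was Krt8, a keratin gene, at 91.0 to 106 CPM and 18.7 to 24.4 CPM (log2 fold change 2.22, adjusted p = 3.01e-09), whereas Ascl2, a transcription factor of the trophoblast, was called lower (-3.07, adjusted p = 3.46e-06). Of 7 streak and mesoderm markers tested, Fgf8 (-2.75, adjusted p = 0.000102) and Mixl1 (-1.09, adjusted p = 0.0287) were called lower. Snai1 was called higher (1.04, adjusted p = 0.0114). Fgf8 kept its call in each of 12 alternatives, Mixl1 in 7 of 13 and Snai1 in 10 of 13. Of 4 fibroblast markers tested 1 was called lower (Dcn, -1.89, adjusted p = 1.95e-05). The part of these lists in the differences was not tested.

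In pEpiLC the 10 genes moved in different directions from EpiLC. Nodal and Fst rose (7.71% of 15288 genes tested were called higher), Gdf3 fell (8.13% were called lower), and the other 7 were not called. The median log2 fold change of the 10 was -0.45, against 0.017 over all genes tested. With the adjusted p alone, 3 were higher (22.8% of all genes tested) and 4 lower (21.4%). Libraries of pEpiLC and EpiLC did not overlap for 7 of the 10 genes, against 58.7% of all genes tested. Without pEpiLC replicate 1, 2 genes were called higher and 2 lower, with Lefty2 added to Gdf3 among the latter. Of the markers tested, 7 of 8 for primitive streak and mesoderm and 3 of 4 for definitive endoderm were called higher in pEpiLC than in EpiLC. Evx1, T and the 3 endoderm genes (Foxa2, Gsc and Lhx1) were at most 0.466 CPM in EpiLC. They passed the filter on low counts through pEpiLC, so only a higher call was open to them. The calls of Mixl1, Evx1, Gsc and Lhx1 were lost with DESeq2, and that of Lhx1 also without any 1 EpiLC library. Of 6 neural markers 4 were called lower, whereas Nes (0.92, adjusted p = 0.00255) and Map2 (0.56, adjusted p = 0.0166) were higher without overlap. In the other lists 1 of 7 epiblast markers was called higher (Fgf5) and 2 lower (Dnmt3b and Pou3f1), 2 of 4 extraembryonic ectoderm and trophoblast markers higher (Cdx2 and Tfap2c) and 1 lower (Ascl2), 1 of 6 naive stem cell markers lower (Nr0b1), and 1 of 4 fibroblast markers higher (Col1a2) and 1 lower (Dcn). Fgf5, at a log2 fold change of 1.00, was at the edge of the limit and called in 7 of 13 alternatives. Dnmt3b was not called without pEpiLC replicate 1 (-0.83). Cdx2, at most 0.187 CPM in EpiLC, passed the filter through pEpiLC and could only be called higher. Sox1, Pax6 and Dcn, at most 0.322 CPM in pEpiLC, could only be called lower. In pEpiLC replicate 1 Lhx1 was at 208 CPM, against 1.26 and 1.33 CPM in replicates 2 and 3. Extraembryonic endoderm markers summed to 77.3 CPM in pEpiLC replicate 1 and to 9.82 and 8.59 CPM in replicates 2 and 3. In replicate 1 the sum was mostly Gata6 (46.5 CPM), with Lama1 (12.5 CPM) and Gata4 (12.3 CPM). Sox7 and Apoa1 had no count in that library, and Dab2 was at 5.91 CPM, against 8.15 to 8.88 CPM in EpiLC. The part of these lists was not tested.

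Between the later states, 6 of the 10 genes were higher in pEpiLC than in aEpiLC and none was called lower. Tdgf1, Fst, Lefty2, Lefty1, Nodal and Smad7 rose by 2.91-fold (Smad7) to 29.5-fold (Tdgf1), where 2.55% of 15198 genes tested were called higher and 4.74% lower. The median log2 fold change of the 10 was 2.19, against 0.012 over all genes tested. With the adjusted p alone 6 were higher (6.28% of all genes tested) and none lower (9.3%). Libraries did not overlap for 8 of the 10 genes, against 38.8% of all genes tested. This comparison is also the test of the difference between the changes from EpiLC described above, which share their EpiLC libraries. Without pEpiLC replicate 1 the same number, 6, was called higher, and 1, Gdf3, was called lower. Without aEpiLC replicate 2 only 3 were called higher, since the adjusted p of Lefty1, Lefty2 and Smad7 became 0.0842, 0.0698 and 0.0746. Primitive streak and mesoderm markers summed to 668 to 2608 CPM in pEpiLC and 10.5 to 14.5 CPM in aEpiLC, where Evx1 was at 0 and Mesp1 under the floor. Definitive endoderm markers (6 of 6) summed to 46.1 to 373 CPM and 0.704 to 1.56 CPM respectively, with Cer1, Gsc and Lhx1 under the floor in aEpiLC. Neural markers summed to 176 to 250 CPM in pEpiLC, with Pax6 under the floor, and to 485 to 551 CPM in aEpiLC. All 6 were lower in pEpiLC without overlap and 4 were called lower. Of the 7 epiblast markers 3 were called lower (Otx2, Dnmt3b and Pou3f1), the first 2 of them not without pEpiLC replicate 1. The Dnmt3b call was also lost without pEpiLC replicate 3 or any 1 aEpiLC replicate. Of 4 extraembryonic ectoderm and trophoblast markers tested, Krt8 was called lower (log2 fold change -1.31, adjusted p = 0.000545), and Cdx2 (4.93, adjusted p = 0.0313) and Tfap2c (2.42, adjusted p = 0.0318) were called higher, both calls lost on leaving out any aEpiLC replicate. In the remaining lists 1 of 5 naive stem cell markers was called higher (Esrrb) and 1 lower (Nr0b1), 1 of 3 extraembryonic endoderm markers lower (Dab2) and 1 of 4 fibroblast markers lower (Dcn). The Nr0b1 call was lost without pEpiLC replicate 2 or any 1 aEpiLC replicate. Cdx2 was at most 0.235 CPM in aEpiLC, and Pax6 and Dcn were at most 0.304 CPM in pEpiLC. Each passed the filter on low counts through the other state, so a call was open to it in 1 direction only. The part of these lists in the differences was not tested.

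**Figure D1:**
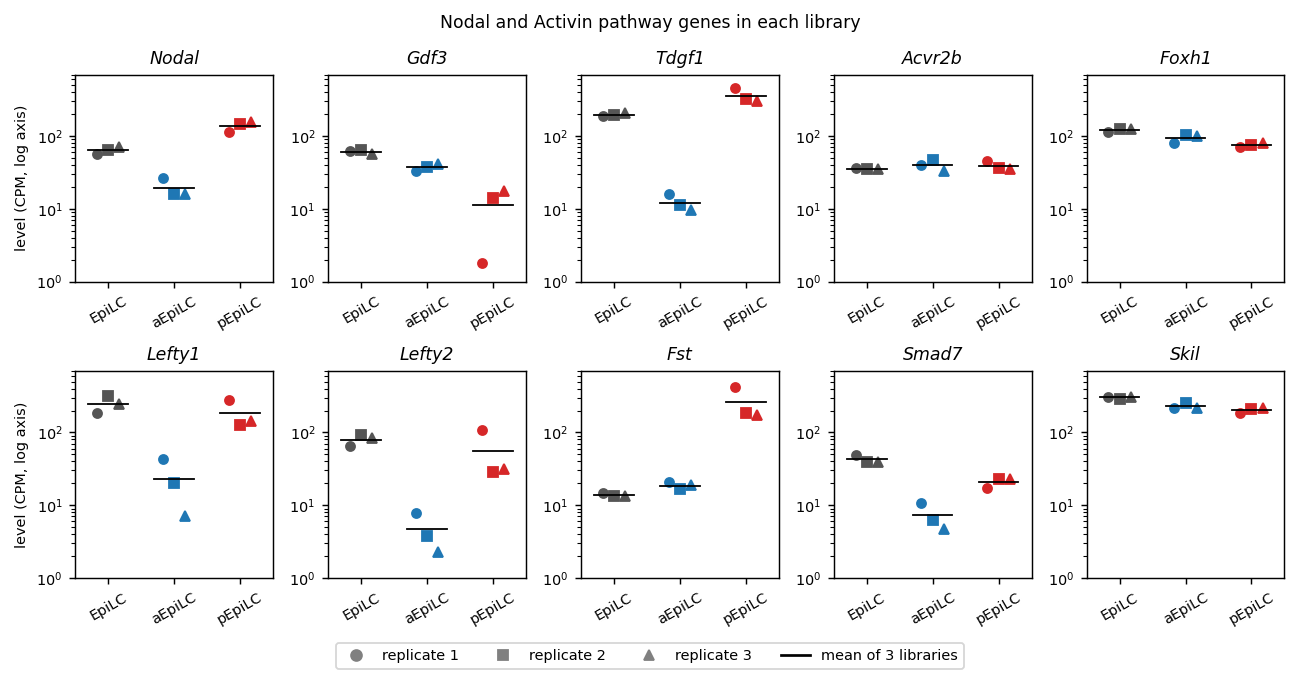
Level of each gene in CPM (log axis) in the 3 EpiLC, 3 aEpiLC and 3 pEpiLC libraries, with a symbol for each replicate and a line at the mean. Nodal, Tdgf1, both Lefty genes and Smad7 are lowest in aEpiLC, Fst is highest in pEpiLC, and pEpiLC replicate 1 lies apart from replicates 2 and 3 for Gdf3, Lefty2 and Fst.

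**Figure D2:**
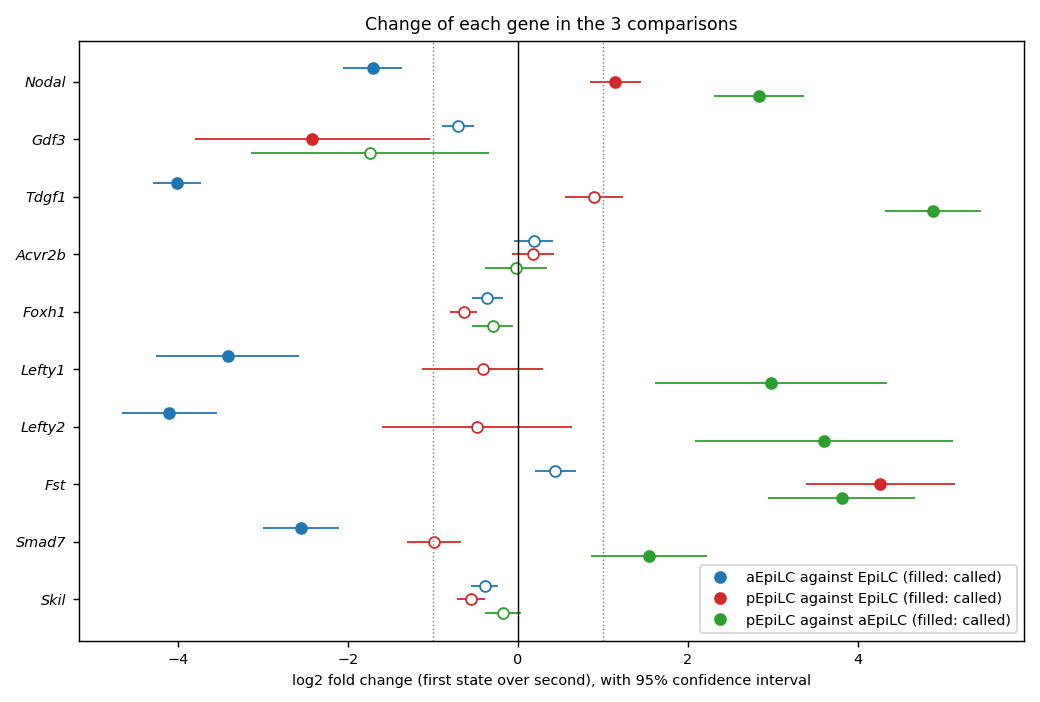
Log2 fold change of each gene in the 3 comparisons with its 95% confidence interval; filled points passed an adjusted p of 0.05 and a log2 fold change of 1 in size, the limit drawn as dotted lines. The 5 filled points of the aEpiLC comparison lie left of the lines and 6 of the comparison between the later states lie right of them, and the intervals of Gdf3 and Lefty2 are the widest among the pEpiLC comparisons.

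Nodal, the ligand after which the pathway is named (ENSMUSG00000037171.6, chr10:61417972-61425338, + strand, GRCm38), was measured at 57.0, 64.1 and 70.6 CPM in EpiLC replicates 1, 2 and 3. It was at 26.8, 15.8 and 15.9 CPM in aEpiLC and at 114, 147 and 155 CPM in pEpiLC. The states followed each other without overlap in the order aEpiLC, EpiLC, pEpiLC. The log2 fold change was -1.71 (SE 0.16, adjusted p = 1.98e-06, edgeR) in aEpiLC against EpiLC. It was 1.14 (SE 0.13, adjusted p = 0.000632) in pEpiLC against EpiLC, and 2.83 (SE 0.23, adjusted p = 0.000363) in pEpiLC against aEpiLC. All 3 calls were also made in each of the 13 alternatives per comparison, and without pEpiLC replicate 1 the rise was 1.27 over EpiLC and 2.96 over aEpiLC on the log2 scale.

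Gdf3, a related ligand that uses the same receptors and co-receptor (ENSMUSG00000030117.5, chr6:122605403-122610087, - strand), took another course. Its level was 62.1, 63.7 and 56.3 CPM in EpiLC, 32.7, 37.1 and 41.8 CPM in aEpiLC, and 1.81, 14.1 and 17.5 CPM in pEpiLC. It was highest in EpiLC and lowest in pEpiLC, with no overlap between states. pEpiLC replicate 1, with 38 counts, was 8.72-fold below the mean of the other two. In aEpiLC against EpiLC the log2 fold change was -0.70 (SE 0.09, adjusted p = 2.84e-05), under the limit on fold change, and the adjusted p was 0.262 with all 9 libraries in a single fit. In pEpiLC against EpiLC Gdf3 fell by 2.42 on the log2 scale (SE 0.59, adjusted p = 0.0138). Without pEpiLC replicate 1 this change was -1.92 (adjusted p = 8.27e-10), and without EpiLC replicate 2 it was -2.39 and lost its call (adjusted p = 0.0509). In pEpiLC against aEpiLC the change of -1.74 (SE 0.60) was not called (adjusted p = 0.0952), but leaving out pEpiLC replicate 1 gave -1.23 with a call (adjusted p = 4.10e-05). It was also called with the likelihood ratio test (adjusted p = 0.0376), with all 9 libraries in a single fit (0.0301) and with the replicate number as a block (0.0495). The ratio of Nodal to Gdf3 per kilobase of exon was 1.06, 1.16 and 1.45 in the EpiLC replicates, 0.951, 0.494 and 0.438 in aEpiLC, and 72.9, 12.1 and 10.3 in pEpiLC. With this length Gdf3 matched Nodal within 1.45-fold in EpiLC, exceeded it in aEpiLC and was below it by 10.3-fold or more in pEpiLC. Another length would scale the ratio by the same factor in each library.

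Tdgf1, the co-receptor (ENSMUSG00000032494.12, chr9:110939603-110946158, - strand), had the widest swing between aEpiLC and pEpiLC among the 10. It was measured at 189.9, 192 and 207 CPM in EpiLC, 16.0, 11.1 and 9.52 CPM in aEpiLC, and 454, 319 and 306 CPM in pEpiLC. The states did not overlap. The log2 fold change was -4.01 (SE 0.13, adjusted p = 4.22e-10) in aEpiLC against EpiLC and 4.88 (SE 0.24, adjusted p = 7.51e-05) in pEpiLC against aEpiLC, the latter 4.69 without pEpiLC replicate 1. Against EpiLC the pEpiLC level was 0.89 higher on the log2 scale (SE 0.15, adjusted p = 0.00271), under the limit. This difference from EpiLC was 0.69 without pEpiLC replicate 1, and 1.00 and called without pEpiLC replicate 3. A pseudogene, Tdgf1-ps1, has 98.6% identity with the Tdgf1 transcript over its 513 bases, and 5 of the 1783 windows of 150 bases in the Tdgf1 transcript, 0.280%, occur in it. It was counted at 13.0 ± 0.906 CPM (SD, n = 3) in EpiLC, 0.814 ± 0.233 CPM in aEpiLC and 25.9 ± 6.32 CPM in pEpiLC, below Tdgf1 in each. The pattern of Tdgf1-ps1 was the nearest to that of Tdgf1 (root mean square difference in centred log2 CPM 0.0882). Whether its counts come from Tdgf1 reads was not tested.

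RefSeq entries for the bases before the start of the gene were at hand for 3 of the 10 genes, Nodal, Tdgf1 and Acvr2b. Those of Tdgf1 and Nodal, which moved together in the comparison with aEpiLC, are shown as the 250 bases before the start in GRCm38.p6, 5′ to 3′ on the strand of the gene. Capitals mark matches, on either strand, to the SMAD half-site CAGAC or the FOXH1 motif AATNNACA. The region of Tdgf1 is chr9:110946159-110946408 (- strand) and that of Nodal chr10:61417722-61417971 (+ strand).
Tdgf1: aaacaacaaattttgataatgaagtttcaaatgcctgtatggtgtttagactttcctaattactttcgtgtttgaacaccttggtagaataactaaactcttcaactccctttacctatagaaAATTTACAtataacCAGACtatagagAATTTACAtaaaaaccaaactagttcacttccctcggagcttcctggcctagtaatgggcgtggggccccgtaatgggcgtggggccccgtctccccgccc
Nodal: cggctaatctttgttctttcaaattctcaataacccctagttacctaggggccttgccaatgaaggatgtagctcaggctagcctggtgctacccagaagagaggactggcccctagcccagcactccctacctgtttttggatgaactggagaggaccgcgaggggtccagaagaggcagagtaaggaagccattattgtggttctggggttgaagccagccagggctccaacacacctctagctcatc
The Tdgf1 region held 2 FOXH1 matches, at -127 to -120 and at -101 to -94 from the start, with a SMAD half-site between them at -113 to -109. No match to these motifs or to the TCF/LEF motif CTTTGAT, on either strand, lay in the Nodal region. The Acvr2b region, counted from a RefSeq start that lies inside the gene as given below, also held a SMAD half-site. Among 27025 regions of the same length, 42.1% held CAGAC, 11.1% AATNNACA and 3.23% CTTTGAT, and the motifs do not overlap in the Tdgf1 region. A match is a run of letters and not a site shown to be bound.

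Acvr2b, a type II activin receptor (ENSMUSG00000061393.14, chr9:119402118-119434995, + strand), was the most even of the 10 genes. Its level was 35.9, 34.9 and 35.0 CPM in EpiLC, 39.6, 47.4 and 32.7 CPM in aEpiLC, and 45.5, 36.3 and 35.8 CPM in pEpiLC. Libraries of the 3 states overlapped. The log2 fold change was 0.18 (95% CI -0.05 to 0.42, adjusted p = 0.184) in aEpiLC against EpiLC, 0.18 (-0.07 to 0.42, adjusted p = 0.216) in pEpiLC against EpiLC, and -0.03 (-0.39 to 0.34, adjusted p = 0.930) in pEpiLC against aEpiLC. The last 2 values were 0.06 and -0.14 without pEpiLC replicate 1.

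Foxh1, which encodes the forkhead partner of the SMAD complex (ENSMUSG00000033837.5, chr15:76668225-76669948, - strand), was measured at 114, 124 and 123 CPM in EpiLC. It was at 80.1 to 102 CPM in aEpiLC and at 71.4, 75.8 and 81.4 CPM in pEpiLC. Both later states lay below EpiLC without overlap, by less than the limit on fold change. The log2 fold change was -0.36 (SE 0.08, adjusted p = 0.00328) in aEpiLC and -0.64 (SE 0.07, adjusted p = 0.000541) in pEpiLC. The libraries of the later states overlapped (log2 fold change -0.30, 95% CI -0.54 to -0.06, adjusted p = 0.0969). Leaving out pEpiLC replicate 1 gave -0.59 against EpiLC and -0.25 against aEpiLC.

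Lefty1 (ENSMUSG00000038793.8, chr1:180935022-180938400, + strand) and Lefty2 (ENSMUSG00000066652.5, chr1:180893108-180899103, + strand) encode secreted antagonists of Nodal and lie close together on the same chromosome. Their coding sequences, 1107 bases each, are 91.9% identical. Whether a read can be assigned to either gene bears on the values below, so bases 34 to 93 of both coding sequences are shown from GRCm38 (chr1:180935143-180935202 and chr1:180893217-180893276), with the 18 bases that differ in capitals. The stretch of 60 bases was chosen for its many differences, while the whole coding sequences are identical at 1017 of 1107 bases.
Lefty1: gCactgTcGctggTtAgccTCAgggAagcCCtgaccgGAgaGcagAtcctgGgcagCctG
Lefty2: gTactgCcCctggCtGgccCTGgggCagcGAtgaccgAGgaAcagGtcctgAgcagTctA
None of the 958 windows of 150 bases, the read length, in the Lefty1 coding sequence occurs in that of Lefty2.

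Lefty1 was measured at 184, 315 and 245 CPM in EpiLC, 42.6, 19.9 and 7.22 CPM in aEpiLC, and 276, 127 and 146 CPM in pEpiLC. Lefty2 was at 64.7, 91.0 and 84.0 CPM in EpiLC, 7.93, 3.78 and 2.30 CPM in aEpiLC, and 109, 29.0 and 31.3 CPM in pEpiLC. For both genes aEpiLC lay below the other states without overlap, and the aEpiLC libraries themselves spread over 5.91-fold for Lefty1 and 3.45-fold for Lefty2. In aEpiLC against EpiLC Lefty1 fell by 3.42 on the log2 scale (SE 0.39, adjusted p = 1.22e-05) and Lefty2 by 4.10 (SE 0.26, adjusted p = 6.11e-08). Without aEpiLC replicate 1, the highest of the aEpiLC libraries, these changes were -4.18 and -4.70.

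Neither Lefty gene was called between pEpiLC and EpiLC, and the libraries overlapped because pEpiLC replicate 1 lay within or above the EpiLC range. The log2 fold change was -0.42 (95% CI -1.13 to 0.30, adjusted p = 0.304) for Lefty1 and -0.48 (-1.59 to 0.64, adjusted p = 0.447) for Lefty2. Without pEpiLC replicate 1 it was -0.84 (adjusted p = 0.000295) for Lefty1, still under the limit, and -1.38 (adjusted p = 1.91e-07) for Lefty2, which was then called lower. Against aEpiLC, pEpiLC was higher by 2.98 for Lefty1 (SE 0.59, adjusted p = 0.0158) and by 3.60 for Lefty2 (SE 0.66, adjusted p = 0.0121) on the log2 scale. Both values turned on single libraries. Lefty1 was higher by 3.75 without aEpiLC replicate 1 and by 2.56 without pEpiLC replicate 1, and Lefty2 by 4.21 without aEpiLC replicate 1 and by 2.7 without pEpiLC replicate 1. Lefty2 also lost its call without aEpiLC replicate 3 (adjusted p = 0.0587).

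Lefty1 made up most of the summed Lefty level per kilobase of exon in every library. Its share was 80.9, 83.7 and 81.2% in the EpiLC replicates, 88.9, 88.7 and 82.3% in aEpiLC, and 79.0, 86.7 and 87.4% in pEpiLC. The means were 81.9 ± 1.56% (SD, n = 3), 86.6 ± 3.71% and 84.4 ± 4.66%. The share differed by 4.68 percentage points between aEpiLC and EpiLC (exact permutation test, two-sided, p = 0.2), by 2.41 points between pEpiLC and EpiLC (p = 0.4 in the exact test) and by -2.27 points between pEpiLC and aEpiLC (p = 0.5 in the exact test). With 3 libraries against 3 this test cannot go below 0.1, so it could not have passed 0.05.

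Fst encodes follistatin, a secreted protein that binds and neutralises Activin (ENSMUSG00000021765.9, chr13:114452290-114458951, - strand). It was measured at 14.7, 13.3 and 13.3 CPM in EpiLC, 20.64, 16.5 and 18.8 CPM in aEpiLC, and 425, 184 and 172 CPM in pEpiLC. Every pEpiLC library was above every other library. The rise over EpiLC was 4.26 on the log2 scale (SE 0.38, adjusted p = 0.000247) and that over aEpiLC 3.81 (SE 0.37, adjusted p = 0.000915). Without pEpiLC replicate 1, which was 2.39-fold above the mean of the other two, the values were 3.72 and 3.26. Fst was the only gene of the 10 above EpiLC in every aEpiLC library, with a log2 fold change of 0.44 (SE 0.11, adjusted p = 0.00565) that was under the limit. With all 9 libraries in a single fit the adjusted p of this small difference was 0.315. An annotated antisense gene overlaps 2.5% of the Fst exon bases, where reads of the pair cannot be told apart without strand.

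Smad7, an inhibitory SMAD that blocks the receptors (ENSMUSG00000025880.11, chr18:75367529-75395935, + strand), was measured at 49.0, 39.4 and 39.2 CPM in EpiLC. It was at 10.8, 6.30 and 4.64 CPM in aEpiLC and at 17.5, 23.2 and 22.6 CPM in pEpiLC. The states did not overlap, with pEpiLC between aEpiLC and EpiLC. The log2 fold change was -2.55 (SE 0.21, adjusted p = 5.49e-07) in aEpiLC against EpiLC and 1.54 (SE 0.29, adjusted p = 0.0137) in pEpiLC against aEpiLC. In pEpiLC against EpiLC it was -0.99 (SE 0.14, adjusted p = 0.00147), at the edge of the limit, and it was called in 6 of 13 alternatives at values between -1.06 and -1.0. With pEpiLC replicate 1 left out, pEpiLC differed by -0.87 from EpiLC and by 1.66 from aEpiLC. Every pEpiLC library lay below EpiLC for Smad7 and above it for Nodal and Fst.

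Skil encodes SnoN, a co-repressor that binds SMADs (ENSMUSG00000027660.16, chr3:31095058-31122577, + strand). Its level was 311, 285 and 311 CPM in EpiLC, 219, 258 and 214 CPM in aEpiLC, and 186, 211 and 213 CPM in pEpiLC. Both later states lay below EpiLC without overlap, with log2 fold changes of -0.39 (SE 0.07, adjusted p = 0.000757) in aEpiLC and -0.55 (SE 0.07, adjusted p = 0.00106) in pEpiLC. These were under the limit, and the later states differed by -0.18 (95% CI -0.39 to 0.04, adjusted p = 0.243). The pEpiLC values without replicate 1 were -0.48 against EpiLC and -0.11 against aEpiLC.

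Levels of different genes were compared per kilobase of the union of their exons. In EpiLC the order was Lefty1 (141 ± 37.3 CPM per kb, SD, n = 3), Foxh1 (88.4 ± 4.04), Tdgf1 (75.0 ± 3.62), Skil (31.2 ± 1.58), Lefty2 (30.6 ± 5.22), Nodal (30.5 ± 3.24), Gdf3 (25.1 ± 1.61), Smad7 (9.40 ± 1.24), Acvr2b (8.97 ± 0.138) and Fst (3.00 ± 0.181). Neighbours in this order differed in every library except that Skil, Lefty2 and Nodal overlapped, as did Smad7 and Acvr2b. In aEpiLC Foxh1 led (68.7 ± 8.76 CPM per kb), followed by Skil (23.7 ± 2.48). Gdf3 (15.3 ± 1.90), Lefty1 (13.2 ± 10.2), Acvr2b (10.2 ± 1.87) and Nodal (9.31 ± 3.03) overlapped with their neighbours, then came Tdgf1 (4.65 ± 1.28) and Fst (4.06 ± 0.451), which overlapped, and Lefty2 (1.79 ± 1.12) and Smad7 (1.61 ± 0.709), which did too. In pEpiLC Tdgf1 (137 ± 31.3 CPM per kb), Lefty1 (104 ± 46.2), Nodal (66.4 ± 10.5), Fst (56.7 ± 31.1) and Foxh1 (55.8 ± 3.67) overlapped in turn, above Lefty2 (21.6 ± 17.5) and Skil (21.0 ± 1.58), Acvr2b (9.98 ± 1.39), and Smad7 (4.66 ± 0.692) and Gdf3 (4.59 ± 3.40). Fst was thus last in EpiLC, and in pEpiLC its libraries overlapped with those of the genes next to it.

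Relative to Nodal in the same library, summed Lefty and Fst changed in opposite ways from EpiLC to the later states. The summed Lefty level per kilobase was 4.76, 7.002 and 5.08 times that of Nodal in the EpiLC replicates, 2.13, 1.69 and 0.659 times in aEpiLC, and 3.65, 1.18 and 1.28 times in pEpiLC. Every EpiLC library was above every library of the later states, which overlapped. Fst was at 0.118, 0.0947 and 0.0861 of the Nodal level in EpiLC, 0.351, 0.476 and 0.540 in aEpiLC, and 1.70, 0.571 and 0.504 in pEpiLC. It was lowest in EpiLC, and the later states overlapped. Tdgf1 per Nodal was 2.66, 2.40 and 2.35 in EpiLC, 0.475, 0.561 and 0.479 in aEpiLC, and 3.18, 1.73 and 1.57 in pEpiLC, so that aEpiLC lay apart from both other states. The length used scales each Fst and Tdgf1 ratio by the same factor in each library. With the longest transcript in place of the union of exons the mean Fst level in pEpiLC was 89.1 rather than 56.7 CPM per kb. In each of these ratios pEpiLC replicate 1 was the highest of the pEpiLC libraries.

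**Figure D3:**
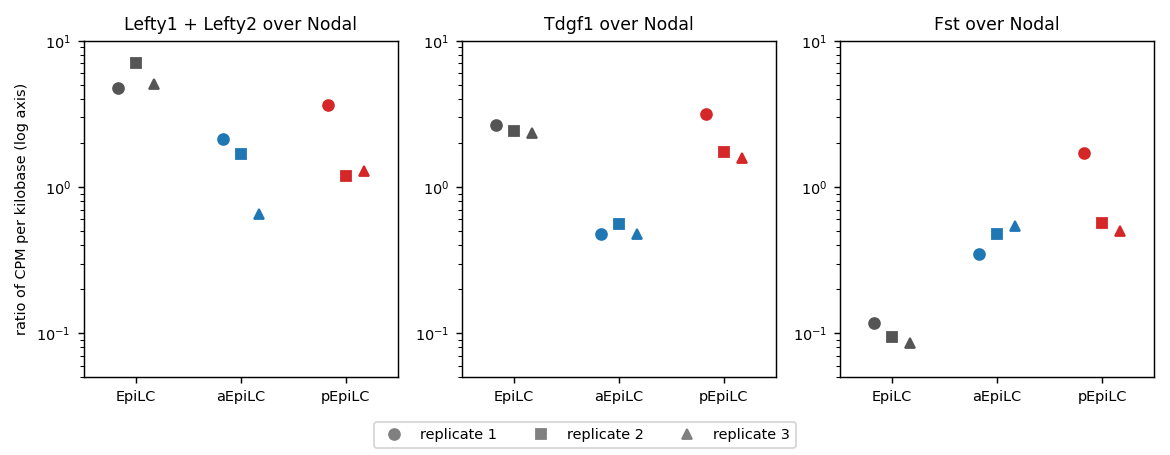
Ratio of the level per kilobase of Lefty1 plus Lefty2, of Tdgf1 and of Fst to that of Nodal in each library (log axis). Summed Lefty per Nodal is 4.76 to 7.002 in EpiLC and at most 3.65 in the other states, Tdgf1 per Nodal is 0.475 to 0.561 in aEpiLC, and Fst per Nodal is 0.0861 to 0.118 in EpiLC.

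The other genes of the pathway were described from a list of 44, of which 43 were in the table. In aEpiLC against EpiLC 37 were tested, 6 were called higher and 3 lower (7.25% and 5.24% of all genes tested), and their median log2 fold change was 0.04. In pEpiLC against EpiLC 10 of 37 were called higher and 2 lower (7.71% and 8.13% of all genes tested), with a median of 0.28. In pEpiLC against aEpiLC 5 of 38 were called higher and 1 lower (2.55% and 4.74% of all genes tested), with a median of 0.08. The medians over all genes tested are given above. Among 9 other intracellular negative regulators, 2 were called in pEpiLC against aEpiLC (Pmepa1 and Smad6, higher), and among 11 signal transducers and nuclear partners 2 (Mixl1 and Eomes, higher). The Smad6 rise of 1.87 (adjusted p = 0.0392) lost its call on leaving out any aEpiLC replicate and was 1.29 without pEpiLC replicate 1. Smad2, Smad3 and Smad4, the transducers themselves, were not called in that comparison. Smad3 was called higher than EpiLC in both aEpiLC (log2 fold change 1.26, adjusted p = 1.18e-06) and pEpiLC (1.21, adjusted p = 0.000137), in all 13 alternatives of each, and differed by -0.07 (adjusted p = 0.728) between the later states.

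Of the other pathway genes called in any comparison, leaving aside the 10, the 4 with the largest rise from aEpiLC to pEpiLC were Mixl1, Eomes, Tgfbr3 and Pmepa1. Pmepa1 encodes a membrane protein that sequesters SMAD2 and SMAD3, and it was at 14.9, 15.1 and 15.7 CPM in EpiLC, 5.11, 2.25 and 2.48 CPM in aEpiLC, and 58.5, 48.2 and 44.6 CPM in pEpiLC. Like Nodal it was below EpiLC in aEpiLC (log2 fold change -2.22, adjusted p = 4.15e-06) and above it in pEpiLC (1.75, adjusted p = 8.72e-05, and 1.63 without pEpiLC replicate 1). Tgfbr3 encodes betaglycan, a co-receptor for TGF-β and inhibin. It was at 2.29, 2.40 and 2.99 CPM in EpiLC, 8.02, 7.56 and 5.98 CPM in aEpiLC, and 167, 135 and 139 CPM in pEpiLC, and rose in both later states (1.49, adjusted p = 2.46e-05, and 5.86, adjusted p = 1.25e-06). Eomes and Mixl1, transcription factors of the streak that also stand among its markers, were at 216 to 381 CPM and 35.9 to 644 CPM in pEpiLC and at most 5.35 and 0.690 CPM in aEpiLC. The Mixl1 rise over aEpiLC was 8.63 on the log2 scale (SE 1.62, adjusted p = 0.0132), and 5.93 when pEpiLC replicate 1 was left out. The call was lost with DESeq2 and on leaving out any aEpiLC replicate.

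In the other direction, Tgfb2, which encodes a TGF-β ligand, was at 0.236 to 0.280 CPM in EpiLC, 2.02 to 2.43 CPM in aEpiLC and 0.524 to 0.873 CPM in pEpiLC. It was called lower in pEpiLC than in aEpiLC (log2 fold change -1.62, SE 0.28, adjusted p = 0.0104), except without aEpiLC replicate 2. Gdf1, a ligand related to Gdf3, differed between these states by -0.44 (adjusted p = 0.206) and was called lower in pEpiLC than in EpiLC (-1.05, adjusted p = 0.00617), except on leaving out pEpiLC replicate 1. The follistatin relatives Fstl1 and Fstl3 differed by -0.32 (adjusted p = 0.0301) and -0.27 (adjusted p = 0.654) from aEpiLC to pEpiLC, whereas Fst rose by 3.81. Fstl1 was higher than EpiLC in aEpiLC (1.40, adjusted p = 2.16e-08) and in pEpiLC (1.10, adjusted p = 0.000158). Fstl3, at 3.55 CPM on average in EpiLC, 1.76 CPM in aEpiLC and 1.46 CPM in pEpiLC, went the other way, with calls at -1.01 (adjusted p = 0.0015) and -1.26 (adjusted p = 0.0186). The first call was lost without EpiLC replicate 2 or aEpiLC replicate 2 or 3, and the second without any 1 of the EpiLC libraries or pEpiLC replicate 2 or 3.

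**Figure D4:**
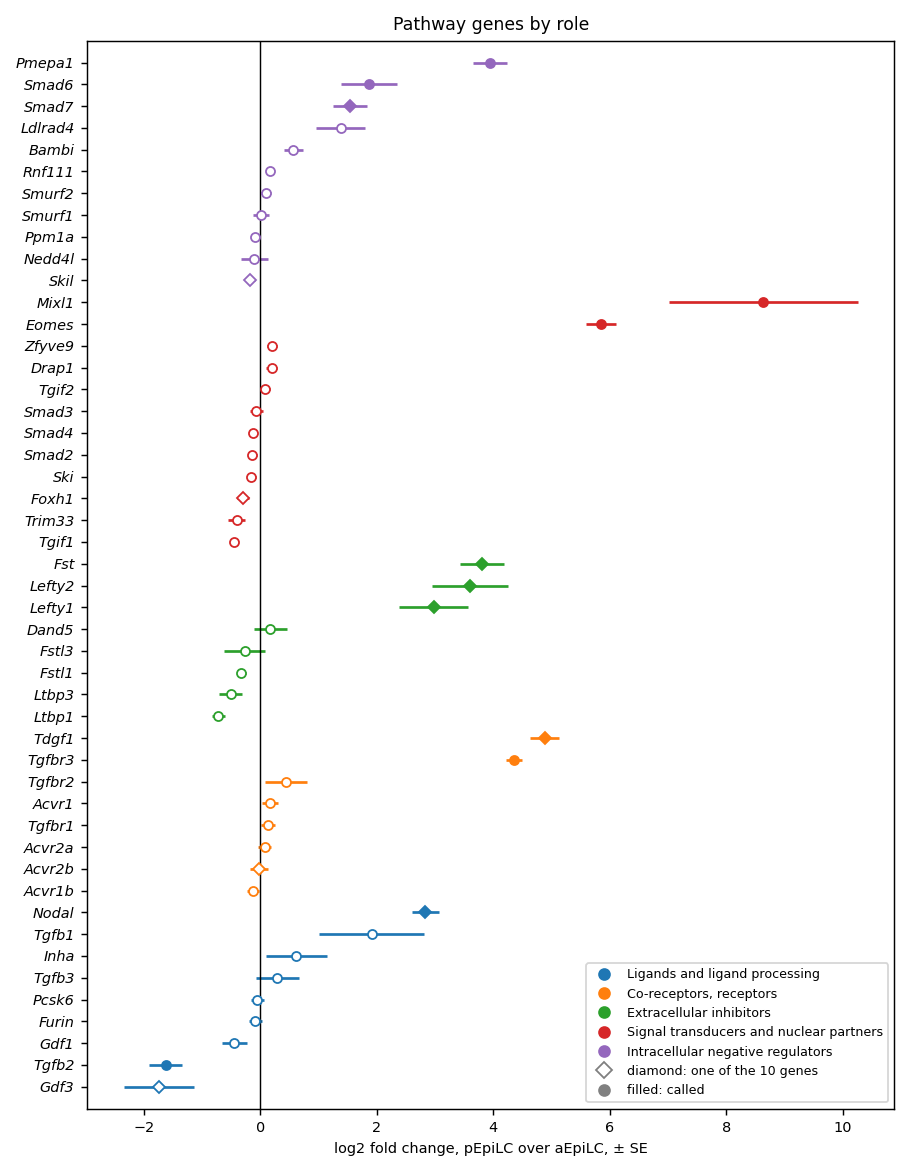
Log2 fold change of pEpiLC over aEpiLC with its SE for the pathway genes tested, grouped and coloured by role; diamonds are the 10 genes and filled symbols were called. Filled symbols right of 0 are 6 of the 10 genes (Tdgf1, Fst, Lefty2, Lefty1, Nodal and Smad7) and 5 others (Mixl1, Eomes, Tgfbr3, Pmepa1 and Smad6), and the filled symbol left of 0 is Tgfb2.

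Genes on either side of Lefty1 and Lefty2, within 150 kb, were examined after the values of the pair had been seen. Tmem63a, an ion channel gene 3.94 kb beyond Lefty1, was at 33.1 ± 6.89 CPM (SD, n = 3) in EpiLC, 6.68 ± 1.91 CPM in aEpiLC and 28.2 ± 6.25 CPM in pEpiLC. It fell in aEpiLC (log2 fold change -2.30, adjusted p = 5.91e-07) and was higher in pEpiLC than in aEpiLC (2.08, adjusted p = 0.00212), the directions of both Lefty genes. The latter value was 1.89 without pEpiLC replicate 1. Sde2 and Ephx1, farther out on either side, differed by -0.17 (adjusted p = 0.0285) and -0.42 (adjusted p = 0.150) in aEpiLC against EpiLC. Acbd3, H3f3a, Sde2, Ephx1 and Nvl were not called in any of the 3 comparisons.

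The genes within 150 kb of Gdf3, Nodal and Tdgf1 were also examined after the values had been seen. Of those around Gdf3, 1 of 9 tested was called higher and 2 lower in aEpiLC against EpiLC (7.25% and 5.24% of all genes tested), and 1 of 8 higher and 3 lower in pEpiLC against EpiLC (7.71% and 8.13%). Apobec1, a cytidine deaminase gene 2.96 kb away, was at 7.89 ± 1.07 CPM in EpiLC and 1.78 ± 0.924 CPM in pEpiLC (log2 fold change -2.11, adjusted p = 0.00362, and -1.75 without pEpiLC replicate 1). Dppa3 (16.3 kb away) and Mfap5 (76.1 kb away), with means of 0.828 and 1.71 CPM in EpiLC and 0.292 and 0.369 CPM in aEpiLC, were at 0.120 and 0.183 CPM in pEpiLC, under and near the floor of 3 counts. Both were called lower in pEpiLC (-2.69, adjusted p = 0.0051, and -3.16, adjusted p = 0.000807) and in aEpiLC (-1.48, adjusted p = 0.0121, and -2.20, adjusted p = 0.00159). Neither passed the filter on low counts in pEpiLC against aEpiLC. Against EpiLC they passed it through their EpiLC level, so only a lower call was open to them. They are the 2 lower calls in aEpiLC and stand among the 3 in pEpiLC. Nanog, the pluripotency factor gene 97.4 kb away, was at 17.3 ± 0.292 CPM in EpiLC, 19.4 ± 6.60 CPM in aEpiLC and 202 ± 84.5 CPM in pEpiLC (3.57 against EpiLC, adjusted p = 0.000279, and 3.89 without pEpiLC replicate 1), the opposite direction to Gdf3. Slc2a3, a glucose transporter gene 118 kb away, was higher in aEpiLC than in EpiLC (1.41, adjusted p = 9.46e-08), where Gdf3 differed by -0.70.

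Near Nodal, 2 of 6 genes tested were called lower in aEpiLC against EpiLC (5.24% of all genes tested), Adamts14 (145 kb, -1.10, adjusted p = 0.00381) and Gm47594 (146 kb, -1.25, adjusted p = 0.0248). Their means in EpiLC and aEpiLC were low, at 2.08 and 0.965 CPM for Adamts14 and 1.32 and 0.548 CPM for Gm47594. The latter was also the 1 of 6 called in pEpiLC against EpiLC (-1.40, adjusted p = 0.00655, with 8.13% of all genes tested called lower). Pald1 (34.4 kb) was higher in pEpiLC than in EpiLC by 0.73 (adjusted p = 0.000488), under the limit, and Eif4ebp2 (3.15 kb) differed by -0.02 (adjusted p = 0.769). Around Tdgf1, 5 of 6 genes tested were called lower in aEpiLC against EpiLC (5.24% of all genes tested). They were Lrrc2 (5.39 kb, -1.99, adjusted p = 0.000519), Als2cl (39.1 kb, -1.21, adjusted p = 8.92e-06), Tmie (59.5 kb, -1.14, adjusted p = 0.00142), Prss50 (75.0 kb, -2.46, adjusted p = 5.33e-07) and Prss44 (115 kb, -1.58, adjusted p = 0.000224). Means in EpiLC and aEpiLC were 22.1 and 9.55 CPM for Als2cl and 13.3 and 2.41 CPM for Prss50. Lower levels were found for Lrrc2 (2.45 and 0.613 CPM), Tmie (3.73 and 1.68 CPM) and Prss44 (2.67 and 0.889 CPM). Between pEpiLC and aEpiLC these 5 differed by -0.83 (Prss44) to 1.10 (Lrrc2, adjusted p = 0.0543) and were not called, and 4 of them (Als2cl, Tmie, Prss50 and Prss44) were called lower in pEpiLC than in EpiLC (8.13% of all genes tested). Without pEpiLC replicate 1 those 4 calls were also made, and Lrrc2 was called higher in pEpiLC than in aEpiLC (1.17, adjusted p = 0.0494).

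**Figure D5:**
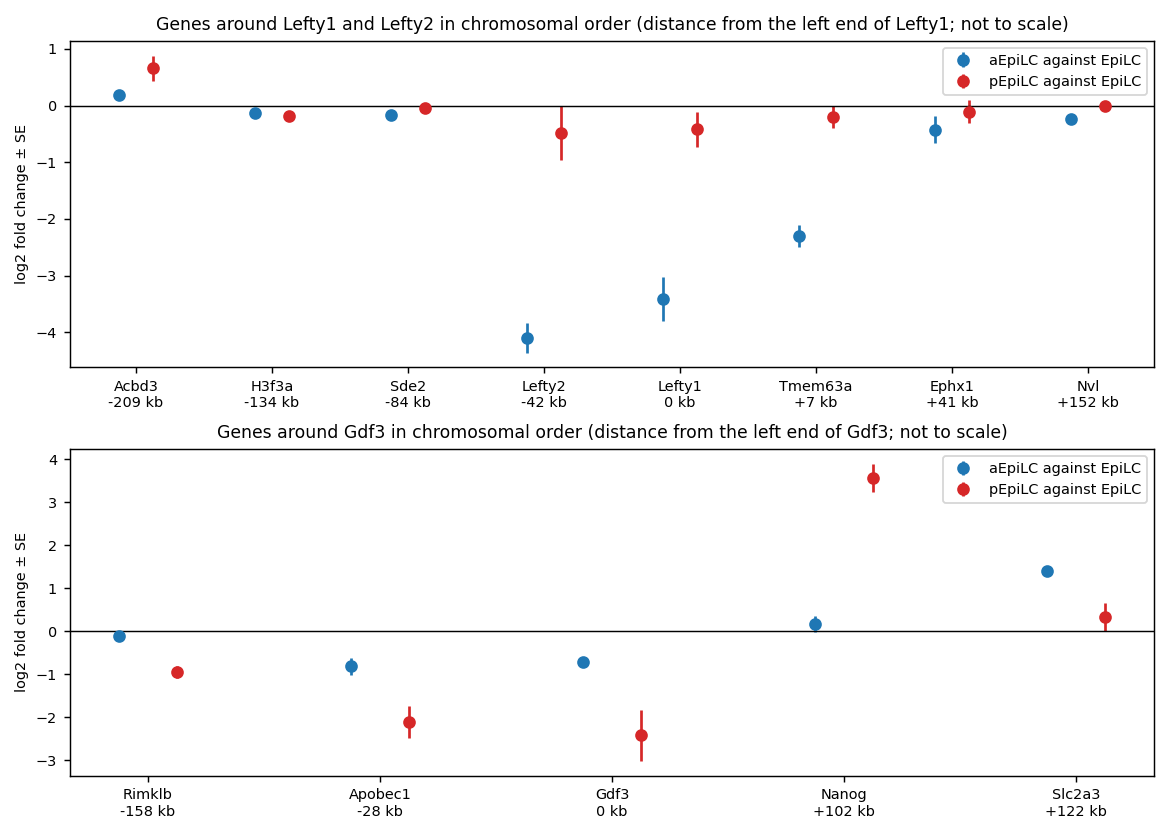
Log2 fold change with its SE of aEpiLC and of pEpiLC against EpiLC for Lefty1, Lefty2 and genes on either side of them (upper panel) and for Gdf3 and genes on either side (lower panel), in chromosomal order, for genes with a mean of at least 5 CPM in a state. Lefty2, Lefty1 and Tmem63a lie at -2.30 or below in aEpiLC, and Apobec1 and Gdf3 lie at -2.11 and -2.42 in pEpiLC, where Nanog is at 3.57.

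Among 10730 genes with a mean of at least 5 CPM, the patterns over the 9 libraries most like that of Nodal were those of Cpt1a, Irgm1, Pxdc1, Chst15 and Sgk1. Their root mean square difference in centred log2 CPM from Nodal was 0.200, 0.317, 0.319, 0.381 and 0.495. Cpt1a was at 13.7 ± 2.15 CPM in EpiLC, 3.72 ± 0.606 CPM in aEpiLC and 27.9 ± 2.13 CPM in pEpiLC. Smad7 was the member nearest to Nodal, at a difference of 0.894 and rank 104. The patterns most like that of Lefty2 were those of Lefty1 (0.384), Tdgf1 (0.848), Tdgf1-ps1 (0.869) and Tmem63a (0.923). Likeness is a description over 9 libraries that share 3 states.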

How the data were processed

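RNA from the 9 libraries (3 each of EpiLC, aEpiLC and pEpiLC) was sequenced by a company as paired-end reads of 150 bases. The reads were mapped to GRCm38 with STAR 2.7.9a and quantified with RSEM 1.3.1. The authors deposited expected counts, not normalized, for each of 23453 gene symbols. Annotation, read cleaning and strandedness are not given in the sources used here. RSEM shares reads that fit several genes, and the deposited expected counts were rounded here. Gene positions and exon lengths came from GENCODE vM21 on GRCm38 (22821 symbols, 97.3%, matched a single gene).

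Each comparison used its own 6 libraries with TMM normalization, filterByExpr and edgeR's quasi-likelihood test (edgeR 4.0.16, limma 3.58.1, R 4.3.3), with Benjamini-Hochberg adjustment over all genes tested. A gene was called at an adjusted p below 0.05 and a log2 fold change of at least 1 in size. The SE is the log2 fold change over the root of its F value. CPM values used TMM factors over the 9 libraries and were divided by the union of exons for levels between genes. Tested on simulated data with 200 genes changed by a log2 fold change of 2, the procedure called 98% of them for aEpiLC against EpiLC (15301 genes), 89% for pEpiLC against EpiLC (15288 genes) and 90% for pEpiLC against aEpiLC (15198 genes), with 3, 6 and 3 false calls. The floor of 3 counts covers counting error only.

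The members and lists, the named genes and the tests were chosen with earlier results of these data known. All 10 members are named. Other pathway genes are named if called in any comparison or, beyond 12 such genes, as the 4 in each direction with the largest log2 fold change in pEpiLC against aEpiLC. The 5 nearest patterns to Nodal and the nearest to Lefty2 are named. Some results are not reported here. Alternatives were RLE size factors, DESeq2 1.42.0, the likelihood ratio test, no filter, at least 10 counts in every library, all 9 libraries in a single fit, the replicate number as a block, each replicate left out, the adjusted p without a fold limit, the longest transcript in place of the union of exons, and raw counts for the Lefty1 share.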

Additional observations from a re-analysis of the deposited data

How the results depend on the processing

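Of 390 log2 fold changes of the 10 genes under 13 alternatives per comparison, 370 kept their direction and their side of the limits, 12 became called, 5 lost their call and 3 changed sign. The 3 were those of Acvr2b in pEpiLC against aEpiLC, at 0.12 without aEpiLC replicate 2 and 0.03 without pEpiLC replicate 2 or 3 (range -0.15 to 0.12 over the replicates left out). RLE size factors, DESeq2 and the absence of a filter changed no call among the 10. In aEpiLC against EpiLC, a filter of 10 counts in every library left 488 genes called lower, against 802. Without a limit on fold change 3676 genes were higher and 3454 lower there, with 1 and 8 of the 10 genes. In pEpiLC against EpiLC the same settings gave 801 genes lower and, without the limit, 3481 higher and 3278 lower, with 4 of the 10 lower. Smad7 joined Gdf3 to make 2 genes called lower with the filter of 10 counts or with all 9 libraries in a single fit, and leaving out replicates gave 1 to 2. In pEpiLC against aEpiLC, no limit on fold change gave 955 higher and 1414 lower. Leaving out replicates gave 180 to 419 genes called higher and 334 to 759 lower (387 and 721 with all libraries), and 3 to 6 of the 10 genes higher and 0 to 1 lower. The lowest counts came without aEpiLC replicate 2, and without aEpiLC replicates 1 and 3 the counts were 252 and 201 higher and 396 and 382 lower. Gdf3 became the 1 gene called lower with the likelihood ratio test (adjusted p = 0.0376), all 9 libraries in a single fit (0.0301) and the replicate block (log2 fold change -2.03, adjusted p = 0.0495). The block changed no other call of the 10 and gave 394 genes called higher and 729 lower there. Libraries of different states share a number and no stated pairing: the correlations of their deviations were -0.06 to 0.02 for aEpiLC against EpiLC, 0.02 to 0.03 for pEpiLC against EpiLC and 0.06 to 0.17 for pEpiLC against aEpiLC, and in the last 2 comparisons each library correlated best with its own number. The Lefty1 share from raw counts was 75.3% in EpiLC, 81.4% in aEpiLC and 78.5% in pEpiLC. With the longest transcript as length, Tdgf1 (102 CPM per kb) came above Foxh1 in EpiLC, and Fst (89.1) above Nodal and Skil (30.3) above Lefty2 in pEpiLC. The cause of these changes was not tested.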
